A study of Mus musculus with 8 samples.

Results

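The genes described here encode the nuclear subunits of the mitochondrial respiratory chain and of ATP synthase, measured in mouse macrophages with and without Bcl6 and with and without lipopolysaccharide (LPS). Members were taken by name: every probe of the array annotated to a gene called Nduf, Uqcr, Cox4 to Cox8 or Atp5, plus Sdha, Sdhb, Sdhc and Sdhd. This gave 135 of the array's 45281 probes, for 87 of the 19057 genes it names. Complex I holds 68 probes of 44 genes, complex II 7 probes of 4 genes, complex III 10 probes of 7 genes, complex IV 21 probes of 16 genes and complex V, the ATP synthase, 29 probes of 16 genes. The name rule also takes in 10 genes that are not subunits, which are 8 complex I assembly factors called Ndufaf, the pseudogene Ndufs5-ps and Cox7a2l, a factor for joining complexes III and IV. Ndufa4 was counted in complex I by its name, although it is now known as a subunit of complex IV, and its kept probe did not pass the test in any comparison below. No probe was annotated to any of the 13 subunits encoded by mitochondrial DNA, so the measurements cover the nuclear part of each complex only.

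The chain passes electrons from NADH at complex I, or from succinate at complex II, through complex III to oxygen at complex IV, and pumps protons that drive ATP synthase. Complex II also belongs to the tricarboxylic acid cycle, and is the only respiratory complex encoded wholly in the nucleus. Macrophages stimulated with LPS, a bacterial cell wall component sensed through Toll-like receptor signalling, are known to rely more on glycolysis and less on respiration, and Bcl6 is a transcriptional repressor that restrains inflammatory genes.

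The cells were primary bone marrow-derived macrophages from male mice 10 weeks old on the c57Bl6/J background. The 4 groups were Bcl6-/- with LPS, Bcl6-/- unstimulated, wildtype with LPS and wildtype unstimulated, each with 2 bead arrays. Both arrays of each group are labelled as technical replicates, with no number of animals, so the spread and every p-value below cover differences between arrays and not between mice. Neither a dose nor a time of LPS is stated in the labels.

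A detection p under 0.01 was required on at least 2 arrays before a change was read, which kept 14418 probes in all and 105 of the 135 member probes. The kept probes belong to 77 genes, and 96 of them were detected on all 8 arrays. Of the 30 others, 29 were detected on no array. The 10 genes left with no kept probe were Cox4i2, Cox6b2, Cox7b2, Cox8b, Cox8c, Ndufaf6, Ndufb11, Ndufs1, Sdha and Uqcrfs1. Signals are given as background-corrected, quantile-normalized log2 intensities, in which 1 unit is a 2-fold difference. "Rose" and "fell" are used for an adjusted p under 0.05 in limma, taken over all 14418 kept probes. A probe that passed the detection filter only through the arrays of the genotype, or of the LPS state, in which it was higher had to differ. Where fewer than 2 arrays of the other side detected it, its values are given without a p-value. Counts of calls among the members are also given without such probes, a step chosen after the data were seen. Counts for lists of other genes include them.

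Each array detected between 11857 and 13209 probes, and arrays of the same group correlated at 0.992 to 0.994 against 0.889 to 0.954 between groups. The Bcl6 probe did not follow the genotype label: its log2 signal was 9.92 and 9.93 with LPS and 12.6 and 12.33 unstimulated in arrays labelled knockout, against 10.75 and 10.99 with LPS and 10.95 and 10.92 unstimulated in wild type. Unstimulated arrays labelled knockout were therefore above wild type for it by 1.53 ± 0.13 log2 units (SE, limma adjusted p = 8.21e-05). Where this probe lies relative to the deleted part of the gene is not given, so these arrays are called labelled knockout throughout. All 8 macrophage marker genes with a probe were detected in each group, but 5 of the 14 kept macrophage probes were lower in arrays labelled knockout in each LPS state. The probes of Aif1, a calcium-binding protein of macrophages, changed by -1.99 and -1.41 with LPS and by -2.38 and -1.87 unstimulated. Those of Csf1r, the receptor for the growth factor of macrophages, changed by -1.53 and -0.69 with LPS and by -1.28 and -0.62 unstimulated. With LPS 3 of the 14 were higher, and unstimulated 0. They were probes of Lyz2, at 1.72 and 0.62, and of Adgre1, at 0.33, while another Adgre1 probe changed by -1.24. Markers of T, B, natural killer, dendritic, stromal and erythroid cells were detected on no array. The 9 granulocyte and precursor markers, of which 6 were detected in arrays labelled knockout and all 9 in wild type, summed to raw intensities of 10519 to 11995 with LPS and 10009 to 10443 unstimulated in arrays labelled knockout, against 23040 to 23442 with LPS and 27129 to 27820 unstimulated in wild type. With LPS 4 of their 11 kept probes rose and 2 fell in arrays labelled knockout (median 0.16), where Cebpe, Elane and Prtn3 lay at background, while 0 rose and 7 fell in wild type (median -0.77). Of the 4 genes of the megakaryocyte list 1 was detected, Pf4, so the list is read as that gene and not as a cell type. The list summed to 15821 to 19637 in arrays labelled knockout and 3446 to 4029 in wild type. The Pf4 probe was higher in arrays labelled knockout by 2.83 log2 units with LPS and 2.5 unstimulated. The part of these genotype differences in the results below was not tested, and in bulk RNA fewer cells of a type and less RNA per cell cannot be told apart.

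The promoters of these genes are known for sites of nuclear respiratory factor 1 (NRF1), of ETS factors such as GABP (also called NRF2), of YY1 and of oestrogen-related receptors (ERR). RefSeq promoter windows on GRCm38.p6, 300 bases long from 250 before to 50 after the annotated start, were found for 72 of the 87 genes, as 77 windows. An exact match on either strand to the NRF1 motif (GCGCA, any base, then GCGC) occurred in 19 of them (24.7%), against 4.6% of all 32851 windows of that length. The ETS core CCGGAAG occurred in 18 (23.4%, against 8.86% of all windows), the YY1 motif AAGATGGCG in 8 (10.4%, against 1.4%) and the ERR motif TCAAGGTCA in 2 (2.6%, against 0.423%). These are matches of letters, not measured sites. The 4 windows below were chosen for the changes of their genes. Sdhd and Ndufb4 were the subunits with the highest estimates against wild type in arrays labelled knockout with LPS. Ndufb4 was detected on no wild-type array, so its place above Cox7b, described below, is not read. Ndufs7 was the subunit that fell most with LPS in wild type. Cox6a1 was the member furthest below wild type in arrays labelled knockout with LPS. Each is given 5′ to 3′ on the gene's strand, with motif matches in capitals.
Sdhd, chr9:50603800-50604099, minus strand: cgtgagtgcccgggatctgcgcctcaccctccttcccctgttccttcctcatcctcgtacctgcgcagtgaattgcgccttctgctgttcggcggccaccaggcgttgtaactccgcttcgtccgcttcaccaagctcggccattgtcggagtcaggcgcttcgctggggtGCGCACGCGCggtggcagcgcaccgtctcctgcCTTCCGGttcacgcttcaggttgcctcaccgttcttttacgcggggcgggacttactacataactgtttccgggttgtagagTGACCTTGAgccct
Ndufb4, chr16:37654319-37654618, minus strand: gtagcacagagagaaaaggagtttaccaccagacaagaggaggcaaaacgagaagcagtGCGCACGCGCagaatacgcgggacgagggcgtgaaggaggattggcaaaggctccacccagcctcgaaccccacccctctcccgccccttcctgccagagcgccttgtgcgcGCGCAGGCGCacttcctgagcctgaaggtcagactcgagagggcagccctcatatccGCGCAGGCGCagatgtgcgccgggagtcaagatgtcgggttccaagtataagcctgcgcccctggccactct
Ndufs7, chr10:80249199-80249498, plus strand: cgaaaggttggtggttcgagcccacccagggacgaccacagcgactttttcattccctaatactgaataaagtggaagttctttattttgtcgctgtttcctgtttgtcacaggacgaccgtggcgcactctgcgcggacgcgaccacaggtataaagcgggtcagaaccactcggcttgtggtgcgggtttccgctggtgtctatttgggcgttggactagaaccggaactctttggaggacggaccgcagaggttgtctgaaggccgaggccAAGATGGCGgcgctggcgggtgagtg
Cox6a1, chr5:115348909-115349208, minus strand: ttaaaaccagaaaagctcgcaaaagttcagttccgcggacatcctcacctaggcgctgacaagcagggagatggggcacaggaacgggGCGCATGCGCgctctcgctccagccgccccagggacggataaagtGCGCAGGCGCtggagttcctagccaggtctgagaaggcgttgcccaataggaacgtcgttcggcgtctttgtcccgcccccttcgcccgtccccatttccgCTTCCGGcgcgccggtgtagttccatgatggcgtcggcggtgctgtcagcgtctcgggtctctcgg
In the Sdhd window the capitals mark an NRF1 match, an ETS core read on the opposite strand and an ERR match read on the opposite strand, and the window overlaps Timm8b, the neighbouring gene for a mitochondrial import chaperone. In Ndufb4 they mark 3 NRF1 matches, in Ndufs7 a YY1 match, and in Cox6a1 a pair of NRF1 matches followed by an ETS core on the opposite strand. The window of Cox7b, another member far above wild type in arrays labelled knockout, held no match to any of these motifs.

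With LPS in wild-type macrophages, many respiratory chain probes fell. Of the 105 kept member probes, 52 (49.5%) fell and 0 rose, where 24.9% of all kept probes fell and 20.4% rose. The share depended on brightness. Of members with a mean log2 signal under 8, 19% fell, against 20.7% of all kept probes there. Between 8 and 11 it was 37.9% against 28.1%, between 11 and 13 70.3% against 32.9%, and at 13 and over 61.1% against 28%. The median member changed by -0.35 log2 units, against -0.071 over all kept probes, and 97 of 105 estimates lay below 0. The drop was modest in size: 1 member, the assembly factor Ndufaf7, fell by 2-fold or more and 0 rose by as much, while 5.58% of all kept probes fell and 7.93% rose that far. By complex, 32 of 58 probes of complex I fell (median -0.39), 4 of 4 of complex II (median -0.58), 4 of 7 of complex III (median -0.52), 6 of 14 of complex IV (median -0.32) and 6 of 22 of complex V (median -0.29). The share of complex V, 27.3%, lay near that of all kept probes. Differences between the complexes were not tested.

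**Figure D1:**
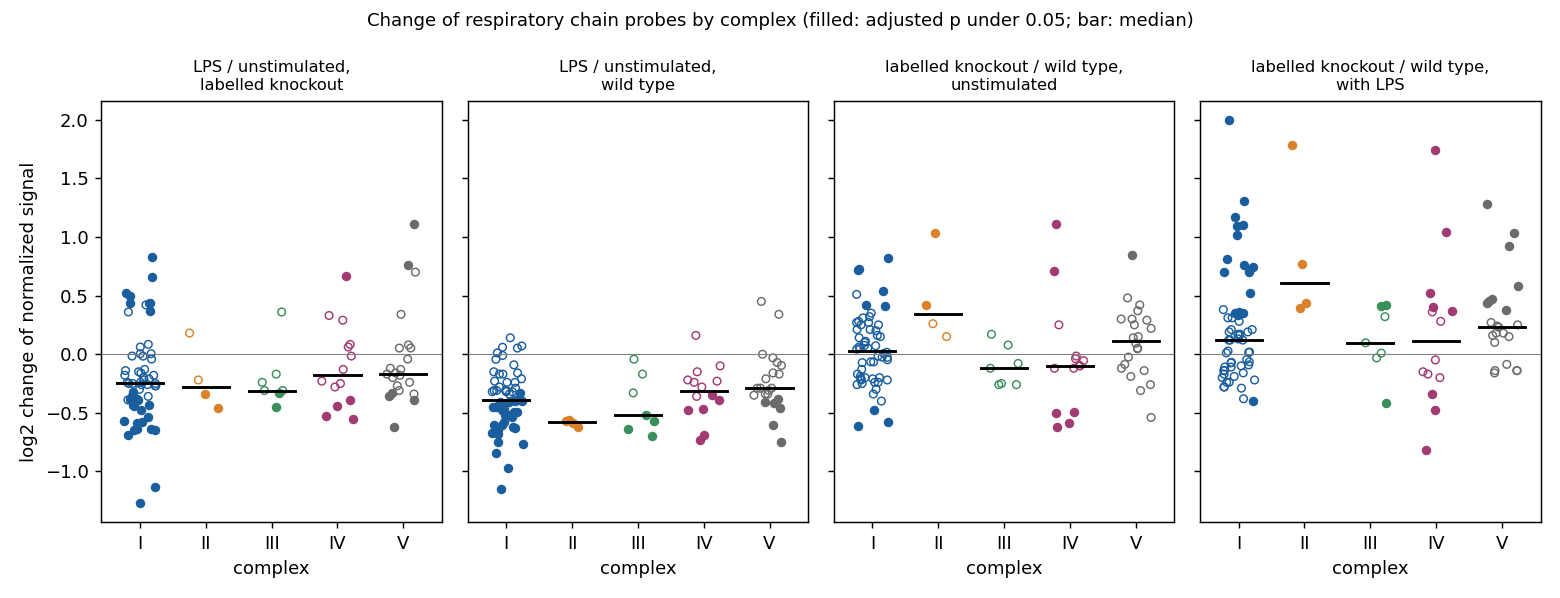
Log2 change (vertical axis) of the 105 kept member probes by complex (horizontal axis) in the 4 comparisons; each circle is a probe, filled where the adjusted p was under 0.05, and each bar is the median. With LPS in wild type the medians of all 5 complexes lie between -0.58 and -0.29, and in arrays labelled knockout against wild type with LPS the highest probe, that of Ndufb4, which was detected on no wild-type array, reaches 2.0.

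Within complex I, read by gene name, 12 of 20 Ndufa and Ndufab probes fell, 7 of 12 Ndufb, 1 of 3 Ndufc and 8 of 13 Ndufs and Ndufv probes. Ndufs7, a core subunit carrying an iron-sulphur cluster near the ubiquinone site, read 11.73 and 11.59 on wild-type arrays with LPS and 12.41 and 12.59 without. The groups did not overlap, and the change of -0.84 ± 0.12 (SE) had a limma adjusted p of 0.000589. Ndufs3, a core subunit of the arm that faces the matrix, read 10.24 and 10.15 with LPS and 10.91 and 10.98 without, a change of -0.75 ± 0.11 (adjusted p = 0.000991). Ndufs8, another iron-sulphur core subunit, changed by -0.68 ± 0.11 (adjusted p = 0.00144). The accessory subunits Ndufa6 and Ndufa11 changed by -0.67 ± 0.12 and -0.65 ± 0.13 (adjusted p = 0.00238 and 0.00365), and a dim probe of Ndufb8, a subunit of the membrane arm, by -0.77 ± 0.15 (adjusted p = 0.0034). The member that fell most was no subunit: Ndufaf7, a methyltransferase known from human cells to act in complex I assembly, read 6.57 and 6.46 with LPS and 7.51 and 7.82 without (-1.15 ± 0.15, adjusted p = 0.000449). A probe of the assembly factor Ndufaf4 changed by -0.97 ± 0.12 (adjusted p = 0.000377), but its brighter probe by only -0.21 ± 0.12, which did not pass.

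In complex II, both probes of Sdhb, the iron-sulphur subunit, fell with LPS in wild type: the brighter read 10.98 and 11.10 with LPS and 11.62 and 11.70 without (-0.62 ± 0.12, adjusted p = 0.00264). Sdhc and Sdhd, the membrane anchors, fell as well, Sdhd to 7.02 and 7.10 with LPS, against 7.59 and 7.67 without (-0.57 ± 0.11, adjusted p = 0.00333). Complex III was led by Uqcr10, a small subunit, at 12.79 and 12.69 with LPS and 13.44 and 13.45 without (-0.70 ± 0.12, adjusted p = 0.00153). In complex IV the largest fall was that of Cox4i1, the ubiquitous form of subunit 4 that takes part in ATP-dependent regulation of the enzyme, at 13.35 and 13.33 with LPS and 14.02 and 14.13 without (-0.73 ± 0.11, adjusted p = 0.00111). Cox7a2l changed by -0.69 ± 0.12 (adjusted p = 0.002). In complex V the peripheral stalk subunit Atp5h read 11.16 and 11.23 with LPS and 11.87 and 12.02 without (-0.75 ± 0.13, adjusted p = 0.00176). The catalytic beta subunit Atp5b, the brightest member, read 15.12 and 15.02 with LPS and 15.15 and 15.06 without, and its change of -0.031 did not pass the test.

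The count of wild-type falls depended on the scaling between arrays, with 29 falls after median scaling, 32 after cyclic loess and 34 with each array centred on its kept probes, a setting chosen after the data were seen. Under these settings 20.5%, 21.1% and 22.9% of all kept probes fell, and 0 members rose. Leaving out the second unstimulated wild-type array gave 34 falls; of the 14 wild-type changes picked by the naming rule, 13 passed under every alternative that kept the probe.

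In arrays labelled knockout the LPS change was mixed. Of the 105 probes 10 rose and 32 fell, where 19.2% of all kept probes rose and 25.6% fell, and the median was -0.24 against -0.086 over all kept probes. Without 3 probes that passed the filter through 1 LPS state, those of Atp5md, Atp5mpl and Ndufaf3, 8 rose and 31 fell. Complex I had 7 rises and 20 falls (median -0.25), complex II 0 rises and 2 falls (median -0.28), complex III 0 rises and 2 falls (median -0.31), complex IV 1 rise and 4 falls (median -0.18) and complex V 2 rises and 4 falls (median -0.17). Without the same 3 probes complex I had 6 rises and 20 falls of 57 probes, and complex V 1 rise and 3 falls of 20. Of all kept probes left, 18.7% rose and 25.3% fell. The split over all 105 probes depended on the scaling. Median scaling gave 2 rises and 28 falls, with the median of all kept probes at -0.25 and the members 0.02 above it. Cyclic loess gave 14 rises and 14 falls with a median of -0.086. Centring on the kept probes gave 11 rises and 8 falls with a median of 0.03. Leaving out an array labelled knockout gave 18 to 26 probes past the test in all, lowest without the second unstimulated one. Of members with a mean log2 signal under 8, those 3 probes included, 33.3% rose and 14.3% fell (18.7% and 23.4% of all kept probes there). Between 8 and 11, 10.3% rose and 24.1% fell (20.7% and 27.6%). Between 11 and 13, 0 rose and 48.6% fell (18.2% and 29.8%). At 13 and over, 0 rose and 22.2% fell (12.5% and 24.3%).

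In arrays labelled knockout the assembly factors Ndufaf4 and Ndufaf7 had the largest falls. Ndufaf4 read 7.48 and 7.59 with LPS and 8.73 and 8.88 without (-1.27 ± 0.12, limma adjusted p = 8.05e-05), and its brighter probe also fell, by 0.64 log2 units (adjusted p = 0.00294). Ndufaf7 read 6.12 and 6.15 with LPS and 7.10 and 7.42 without (-1.13 ± 0.15, adjusted p = 0.000481), and its probe was detected on 1 of the 2 arrays with LPS. Ndufs7 read 11.52 and 11.56 with LPS and 12.16 and 12.23 without (-0.65 ± 0.12, adjusted p = 0.00231). Further falls of subunits were those of Ndufv3, a small subunit of the NADH-binding part, at -0.69 ± 0.14 (adjusted p = 0.00461), both probes of Ndufa8, at -0.64 ± 0.11 and -0.58 ± 0.18, Ndufab1, the mitochondrial acyl carrier protein, at -0.59 ± 0.12, Ndufs3 at -0.57 ± 0.11, and Cox6b1, a complex IV subunit on the intermembrane side, at -0.55 ± 0.11. Where a probe was detected on neither array of a group, the fold is given as a bound against the dimmest detected signal of those arrays. A dim probe of Atp5mpl, not detected with LPS, averaged 5.45 with LPS and 6.07 without, a bound of at least 1.01-fold lower with LPS; it was detected on the 2 unstimulated arrays labelled knockout alone and has no test. Of the 21 tested changes named for this comparison, 9 passed under every alternative that kept the probe, among them Ndufaf4, Ndufaf7, Ndufs7, Ndufs3, Ndufv3 and Ndufb4.

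Of the 8 tested rises in arrays labelled knockout, 5 were of probes with a mean log2 signal under 8. Ndufb4, an accessory subunit of the complex I membrane arm, read 7.18 and 7.16 with LPS and 6.39 and 6.29 without (0.83 ± 0.15, adjusted p = 0.00223). Atp5k, the e subunit that helps ATP synthase form dimers, read 7.08 and 7.13 with LPS and 6.56 and 6.12 without (0.76 ± 0.19, adjusted p = 0.0103). Cox7b, a small subunit of complex IV, read 7.13 and 7.26 with LPS and 6.42 and 6.62 without (0.67 ± 0.17, adjusted p = 0.0137). In each of these the groups did not overlap, and the mean signals over the 8 arrays were 6.05, 6.71 and 6.25. Atp5md, another small ATP synthase subunit, averaged 6.67 with LPS and 5.56 without, where it was not detected, and was at least 1.81-fold higher with LPS. The assembly factor Ndufaf3 was likewise not detected without LPS in arrays labelled knockout and at least 1.24-fold higher with it. Both passed the filter through the arrays with LPS and have no test. Ndufb9, another Ndufb subunit, changed by 0.52 ± 0.13 (adjusted p = 0.0138), and 3 probes of Ndufs4, an accessory subunit of the matrix arm, by 0.37 to 0.44, while its brightest probe changed by -0.16 and did not pass.

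Set side by side, 22 probes fell with LPS in both genotypes, 30 passed as falls in wild type only, 10 as falls in arrays labelled knockout only and 10 as rises there, and 0 probes passed in opposite directions. The rises of Atp5md and Ndufaf3 and the fall of Atp5mpl are counted here. Their probes passed the filter only through the LPS state in which they were higher. The same counts were not made over all kept probes, so they are not read as a trait of the members. The pair of LPS changes, which share no array, correlated across the 105 probes with a Pearson r of 0.56 and a Spearman rho of 0.47, compared with 0.8 and 0.71 over all kept probes. Probes are not independent replicates, and these values describe the arrays. The change was less negative, or more positive, in arrays labelled knockout for 79 of 105 members (75.2%), against 48.8% of all kept probes.

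**Figure D2:**
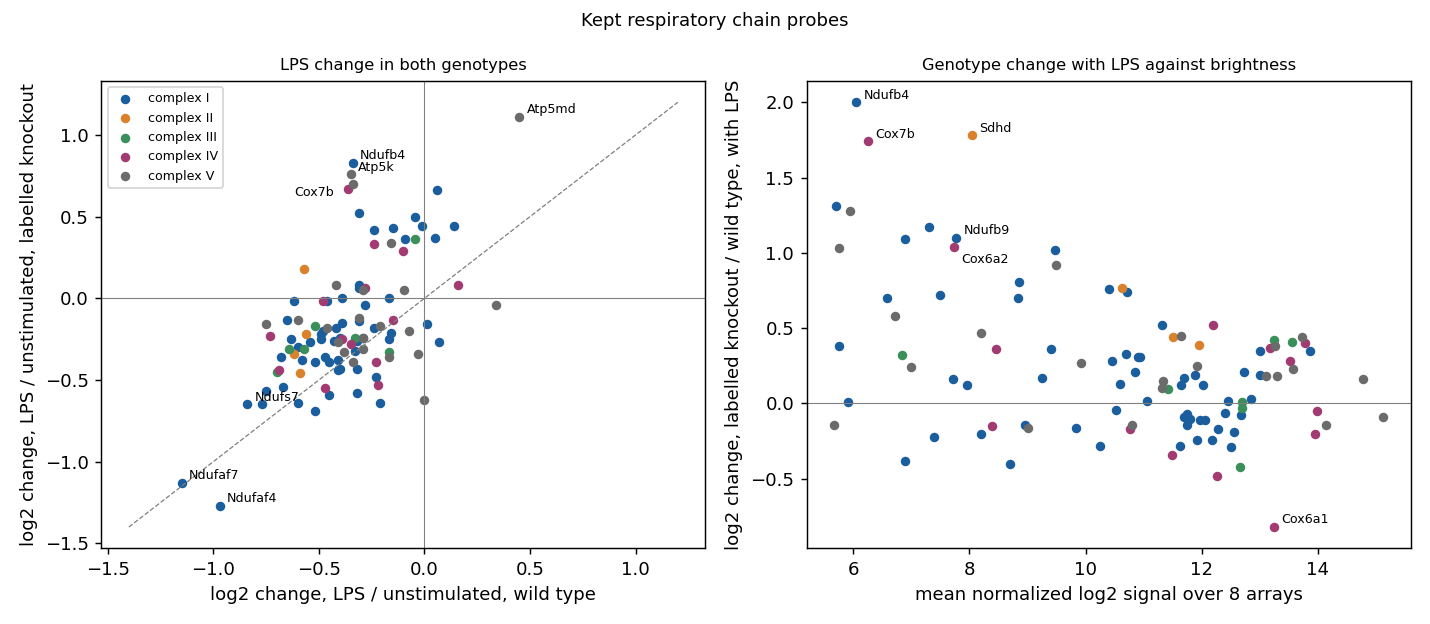
Left, log2 change with LPS in arrays labelled knockout (vertical axis) against that in wild type (horizontal axis) for the 105 kept member probes, coloured by complex, with a dashed line of equal change. Right, log2 change of labelled knockout over wild type with LPS (vertical axis) against the mean log2 signal over the 8 arrays (horizontal axis). On the left 79 of the 105 points lie above the dashed line, and on the right the points over 1 have mean signals under 10.

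The difference of the LPS effect between the genotypes was tested in the same model. It passed for 5 member probes, all with the more positive change in arrays labelled knockout, where 3.6% of all kept probes passed in that direction and 4.64% in the other. The probes of Ndufb4 and Cox7b, among these 5, were detected on 0 and 1 of the 4 wild-type arrays and passed the filter through arrays labelled knockout, so the wild-type side lies at background and no difference is read for them. Without such probes 3 of 98 members passed (3.06%), near the 2.99% of all kept probes left. They were Sdhd (0.75 ± 0.16, limma adjusted p = 0.025), Ndufb9 (0.83 ± 0.19, adjusted p = 0.0342) and Atp5k (1.12 ± 0.26, adjusted p = 0.0374), of which Atp5k differed by 2-fold or more, as did 1.89% of all kept probes in that direction and 2.32% in the other. In arrays labelled knockout Sdhd read 8.79 and 8.89 with LPS and 8.63 and 8.69 without, a change that did not pass the test, beside its fall in wild type. Ndufb9 read 8.47 and 8.26 with LPS and 7.81 and 7.89 without in arrays labelled knockout, against 7.13 and 7.41 with LPS and 7.60 and 7.56 without in wild type. Among the granulocyte and precursor markers the difference passed for 4 of 11 probes, all with the more positive change in arrays labelled knockout as well. A probe of Mpo, myeloperoxidase, differed by 1.80 and one of S100a9, a calcium-binding protein of granulocytes, by 1.19. The second Mpo probe and that of Prtn3, a granule protease, were not detected in arrays labelled knockout, so no difference is read for them. The part of these markers in the values of the members was not tested. The count of 5 rests on all 8 arrays: leaving out any 1 gave 0 to 3, and it was 0 without the second unstimulated array labelled knockout. None of Sdhd, Ndufb9 and Atp5k passed under every alternative, and median scaling left none of them past the test.

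With LPS, more members were higher than lower in arrays labelled knockout compared with wild type, on the normalized scale. Before normalization the arrays differed in brightness. The median raw intensity of kept members with LPS was 2250.0 and 2189.1 in arrays labelled knockout, against 2592.2 and 2647.0 in wild type. For all kept probes it was 299.2 and 316.4, against 396.3 and 399.4. Of the 105 probes 36 (34.3%) rose and 5 fell, where 20.2% of all kept probes rose and 23.1% fell. The median member changed by 0.18, against -0.044 over all kept probes, and 11 rose by 2-fold or more, where 6.1% of all kept probes did. Without 6 probes that passed the filter through 1 genotype, 31 of 99 rose (31.3%) and 5 fell, with a median of 0.17 and 6 rises of 2-fold or more, where 19.5% of all kept probes left rose and 22.7% fell. All 4 probes of complex II rose (median 0.60), and so did 17 of 58 of complex I with 1 fall (median 0.13), 2 of 7 of complex III with 1 fall (median 0.097), 5 of 14 of complex IV with 3 falls (median 0.11) and 8 of 22 of complex V with 0 falls (median 0.24). Within complex I, 8 of 12 Ndufb probes rose (median 0.53), as did 3 of 20 Ndufa and Ndufab probes (median -0.055) and 4 of 13 Ndufs and Ndufv probes (median 0.16). The probes set aside were 3 of complex I, 1 of complex IV and 2 of complex V, and without them 15 of 55, 4 of 13 and 6 of 20 probes of these complexes rose, and 7 of 11 Ndufb probes. Scaling each array to the median of all probes turned the split to 20 rises and 21 falls, with a member median of -0.051, but moved the median of all kept probes to -0.30, so that the members stayed 0.25 above it. Centred on the kept probes instead, 44 rose and 2 fell with a median of 0.28, and leaving out 1 of the 4 arrays with LPS gave 23 to 27 probes past the test in all.

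**Figure D3:**
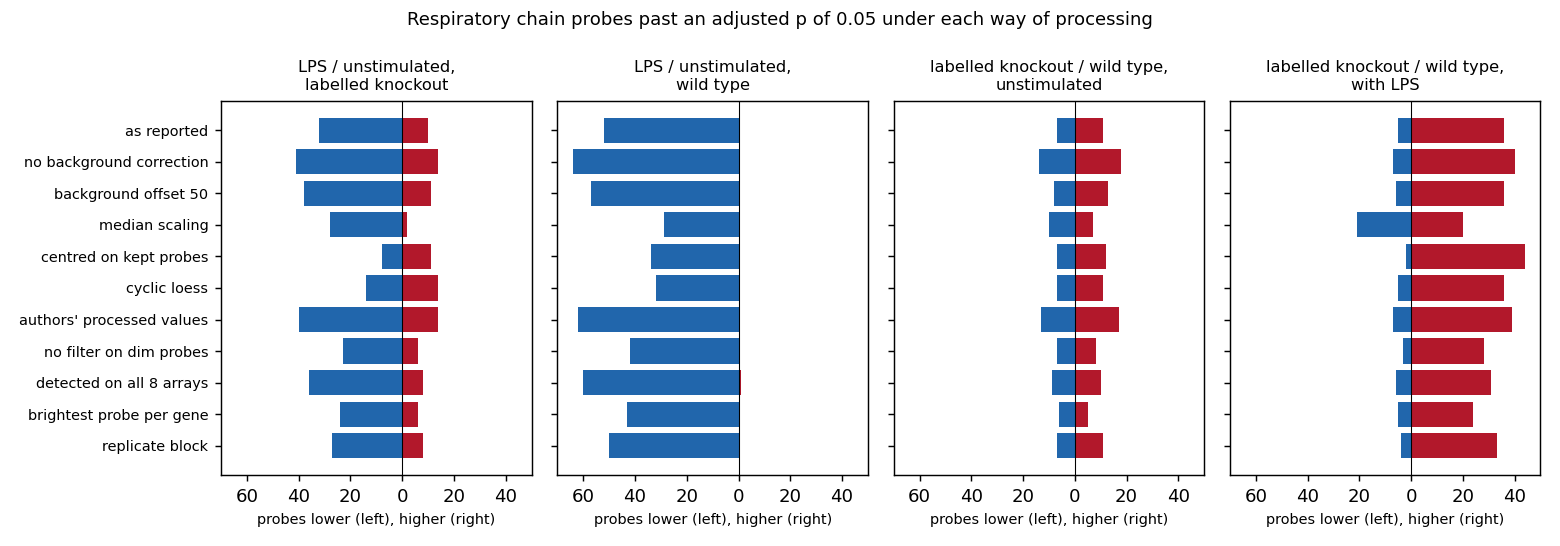
Number of member probes past an adjusted p of 0.05 (horizontal axis, lower to the left and higher to the right) under each way of processing (vertical axis) in the 4 comparisons. The bar for the reported setting shows 36 higher and 5 lower with LPS in arrays labelled knockout against wild type, and the bar for median scaling 20 higher and 21 lower.

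Sdhd had the widest gap among subunits detected in both groups. Its log2 signal was 8.79 and 8.89 in arrays labelled knockout with LPS and 7.02 and 7.10 in wild type with LPS, a difference of 1.78 ± 0.11 (SE, limma adjusted p = 8.93e-06), or 3.43-fold. Both probes of Timm8b, the gene that overlaps the Sdhd window printed above, rose as well, by 1.05 ± 0.11 and 0.98 ± 0.11 (adjusted p = 0.000166 and 0.000247). Beyond Timm8b, the kept probe of the next gene Nkapd1 changed by -0.28 ± 0.15 and did not pass (adjusted p = 0.16). On the other side of Sdhd, the nearest gene Tex12 was not detected. Il18, the next one there and a cytokine gene, rose by 1.19 ± 0.10 (adjusted p = 5.78e-05). These neighbours were looked up after the Sdhd values were seen. Neighbours of other members were looked up too, and in the same comparison they were mixed. Beside Cox6a1, which was lower, Triap1 changed by -0.02, while the kept probes of Gatc beyond it changed by -1.06 and -0.52. Near Ndufb4 and Cox7b, which read higher, Rabl3 changed by -0.96 and Atp7a by -0.19.

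Ndufb9 read 8.47 and 8.26 in arrays labelled knockout with LPS, against 7.13 and 7.41 in wild type with LPS, a difference of 1.10 ± 0.13 (adjusted p = 0.000365). Ndufb2, another small membrane arm subunit, read 7.98 and 7.90 in arrays labelled knockout and 6.58 and 6.95 in wild type (1.17 ± 0.19, adjusted p = 0.00161). In neither did the groups overlap. Together with Sdhd and with Cox6a2, the brighter Cox6a1 probe, Atp5a1 and the dim probes of Ndufs4 and Ndufa5 described next, they passed under every alternative that kept the probe, as 8 of 14 tested changes named for this comparison. Ndufb4 and Cox7b passed the filter through arrays labelled knockout, so their values are given with no test. Ndufb4 read 7.18 and 7.16 in arrays labelled knockout with LPS, against 5.24 and 5.11 in wild type with LPS, where it was not detected, a bound of at least 2.46-fold. Cox7b read 7.13 and 7.26 in arrays labelled knockout with LPS, against 5.24 and 5.67 in wild type with LPS, where it was not detected, a bound of at least 2.5-fold.

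The isoforms of subunit Cox6a changed in opposite directions. Cox6a2, the form known from heart and skeletal muscle, read 8.43 and 8.19 in arrays labelled knockout with LPS and 7.43 and 7.12 in wild type with LPS (1.04 ± 0.16, adjusted p = 0.00111). Cox6a1, the form of most other tissues, fell on both its probes. The brighter read 12.52 and 12.78 in arrays labelled knockout and 13.52 and 13.41 in wild type (-0.82 ± 0.12, adjusted p = 0.00106), and the other changed by -0.48 ± 0.12 (adjusted p = 0.0145). The remaining falls were those of Uqcrc2, a core protein of complex III, at -0.42 ± 0.11 (adjusted p = 0.016), the assembly factor Ndufaf8 at -0.40 ± 0.12 (adjusted p = 0.0287) and Cox7a2l at -0.34 ± 0.12 (adjusted p = 0.048).

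Among the other members higher by 2-fold or more, probes of one gene differed. Ndufs4 has 4 kept probes: the dimmest read 10.06 and 10.21 in arrays labelled knockout with LPS and 9.02 and 9.20 in wild type (1.02 ± 0.12, adjusted p = 0.000327), 2 more rose by 0.74 and 0.76, and the brightest read 11.72 and 11.71 against 11.66 and 11.98 and did not pass. Ndufa5, an accessory subunit of the matrix arm, rose by 1.09 ± 0.17 on its dim probe (adjusted p = 0.00147), while its bright probe changed by 0.31 and did not pass. For Atp5pb, the b subunit of the ATP synthase stalk, a dim probe not detected in wild type was at least 1.75-fold higher, beside changes of 0.15 and -0.14 on its pair of bright probes. Ndufaf5, an assembly factor known from human cells to hydroxylate Ndufs7, was at least 1.48-fold higher on a dim probe not detected in wild type, beside a change of 0.12 on the other. Atp5md, detected on 1 wild-type array, read 6.81 and 6.53 in arrays labelled knockout and 6.11 and 5.16 in wild type. These 3 probes also passed the filter through arrays labelled knockout and have no test. Atp5a1, the alpha subunit of the ATP synthase head, rose by 0.92 ± 0.16 (adjusted p = 0.00241).

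With LPS, the median genotype change was largest among the dimmest members, and it did not fall steadily with brightness. Of the 21 member probes with a mean log2 signal under 8, 12 rose (57.1%) and 0 fell with LPS, with a median of 0.70. Of all kept probes under 8, 19.8% rose and 22.8% fell, with a median of -0.059. Without the 6 probes that passed the filter through 1 genotype, 7 of 15 rose and 0 fell, with a median of 0.38. The 29 members between 8 and 11 had 11 rises and 1 fall (37.9% and 3.45%, against 21.1% and 24.6% of all kept probes there), with a median of 0.28. The 37 members between 11 and 13 had 5 rises and 3 falls (13.5% and 8.11%, against 20.8% and 21.7%), with a median of 0.0089. The 18 members at 13 and over had 8 rises and 1 fall (44.4% and 5.56%, against 15.1% and 15.5%), with a median of 0.25. The Pearson r between change and mean signal was -0.47 across the 105 members, those 6 probes included, and 0.0 across all kept probes. The Spearman rho was -0.31 and 0.02. The filter kept those 6 dim probes only through arrays labelled knockout, where they were higher, and no correlation was computed without them. What the dim probes share was not tested, since probe sequences were not used here. Taking the brightest kept probe of each of the 77 genes left 24 rises and 5 falls, where 21.3% of all probes kept this way rose and 22.6% fell.

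Without LPS, arrays labelled knockout and wild type differed in few members. Of the 105 probes 11 rose and 7 fell, where 16.3% of all kept probes rose and 16.1% fell, and the median was 0.016. Without 7 probes that passed the filter through 1 genotype, 8 rose and 7 fell, with a median of -0.021. Complex II had 2 rises of 4 probes, complex I 6 rises and 3 falls, complex IV 2 rises and 4 falls, complex V 1 rise and 0 falls, and complex III 0 of either. Without those 7 probes complex I had 4 rises and 3 falls of 55 probes. Complex IV had 1 rise and 4 falls of 13, and complex V 1 rise and 0 falls of 19. Of all kept probes left, 15.7% rose and 15.5% fell. The 2 members that rose by 2-fold or more were Cox6a2 and Sdhd, and 0 fell as far, where 4.15% of all kept probes rose and 3.77% fell by that much. Cox6a2 read 8.20 and 8.25 in arrays labelled knockout and 7.26 and 6.97 in wild type (1.11 ± 0.16, limma adjusted p = 0.0011). Sdhd read 8.63 and 8.69 in arrays labelled knockout and 7.59 and 7.67 in wild type (1.03 ± 0.11, adjusted p = 0.000242). In both, the groups did not overlap. Median scaling gave 7 rises and 10 falls, with all kept probes at a median of -0.052, and leaving out the first unstimulated array labelled knockout gave 10 probes past the test in all.

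**Figure D4:**
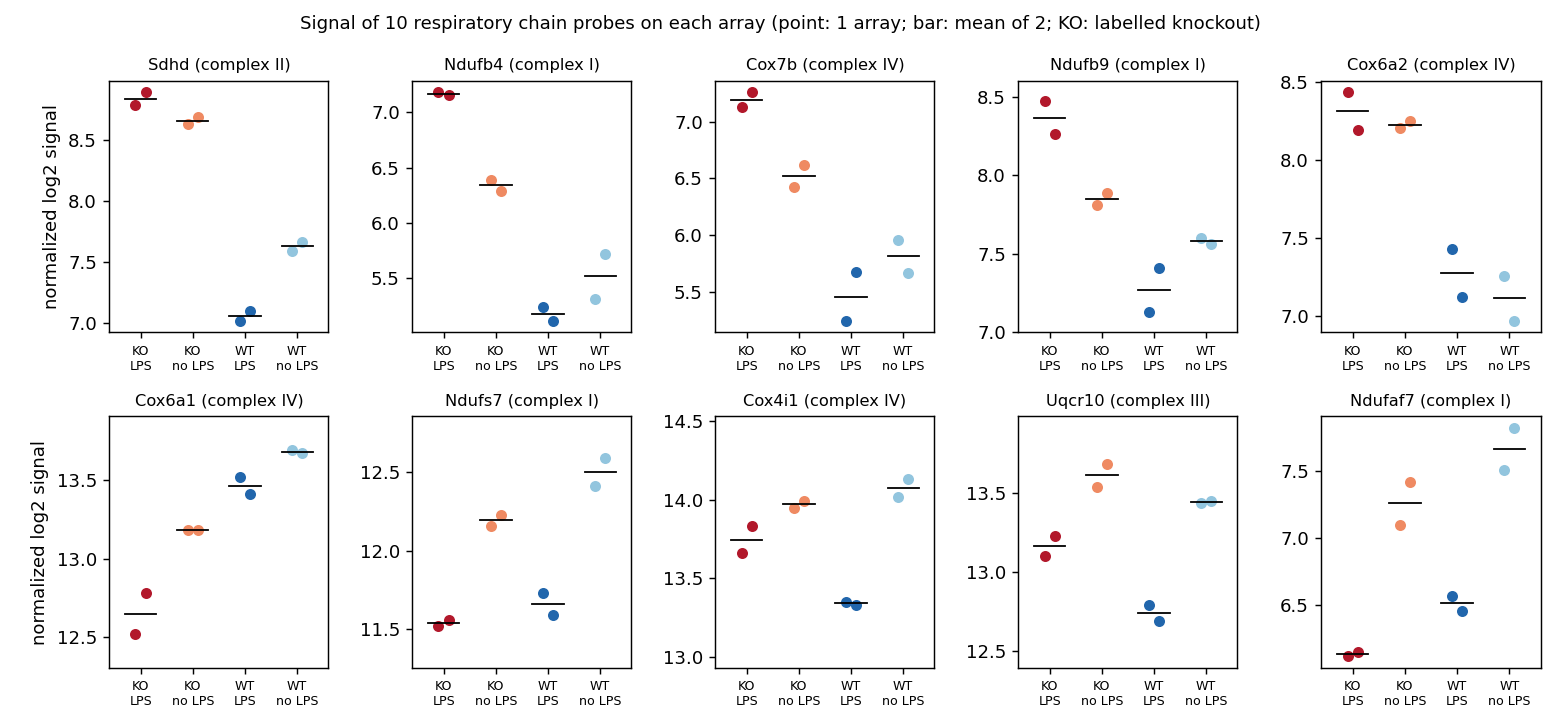
Normalized log2 signal (vertical axis) of 10 member probes on each of the 8 arrays, by group (horizontal axis; KO, labelled knockout; WT, wild type); points are arrays and bars the mean of 2. Sdhd and Cox6a2 are higher on all 4 arrays labelled knockout than on any wild-type array, and Cox6a1 is lower on all 4.

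The other rises in unstimulated arrays labelled knockout were those of Atp5o, which joins the stalk to the catalytic head of ATP synthase, on its dim probe (0.85 ± 0.14, adjusted p = 0.00227), of 2 probes of Ndufs4 (0.72 ± 0.12 and 0.42 ± 0.13), of the dim probe of Ndufa5 (0.54 ± 0.17), of 1 probe of Sdhb (0.42 ± 0.13) and of Ndufb5 (0.41 ± 0.12). Ndufb4 and Ndufaf5, not detected in unstimulated wild type, were at least 1.37-fold and 1.09-fold higher, with no test, and Cox7b read 6.42 and 6.62 in arrays labelled knockout, against 5.96 and 5.66 in wild type. The falls were those of both Cox6a1 probes (-0.62 ± 0.12 and -0.50 ± 0.12, adjusted p = 0.0065 and 0.0148), Ndufa7 (-0.61 ± 0.13), Cox7a2l (-0.59 ± 0.12), Ndufaf8 (-0.58 ± 0.12), Cox7a1 (-0.49 ± 0.11), the other muscle-type isoform detected here, and 1 probe of Ndufv3 (-0.48 ± 0.11). The genotype comparisons with and without LPS share no array, but the labels give no number of animals. All 8 tested probes that rose unstimulated also rose with LPS, and 4 of the 7 that fell also fell. This count was not made over all kept probes, so it is not read as a trait of the members.

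Genes around the respiratory chain were read as lists, beside the 19.2% of all kept probes that rose and 25.6% that fell with LPS in arrays labelled knockout, and the 20.4% and 24.9% in wild type. Among 46 kept probes of assembly factors and electron carriers outside the name rule, LPS gave 6 rises and 19 falls (13% and 41.3%) in arrays labelled knockout and 4 rises and 16 falls (8.7% and 34.8%) in wild type. In arrays labelled knockout these include a rise of Sco1 and a fall of Atpif1. Both probes passed the filter only through the LPS state in which they were higher. Sdhaf1, which helps load the iron-sulphur clusters of Sdhb, fell by 0.78 log2 units in arrays labelled knockout and by 0.82 in wild type on one of its probes (adjusted p = 0.00106 and 0.000837). The same probe of Sdhaf1 was 0.80 ± 0.12 higher with LPS in arrays labelled knockout than in wild type, and Timmdc1, a complex I assembly factor, was 1.04 ± 0.12 higher (adjusted p = 0.000342). For Cycs, cytochrome c, a dim probe read 6.92 and 7.39 in arrays labelled knockout with LPS and 5.44 and 5.68 in wild type, where it was not detected, and has no test, while its bright probe changed by 0.26 ± 0.12 and did not pass. With LPS 12 probes of this list were higher and 7 lower in arrays labelled knockout (26.1% and 15.2%, against 20.2% and 23.1% of all kept probes), and unstimulated 7 and 4 (15.2% and 8.7%, against 16.3% and 16.1%). With LPS these counts include probes of Cycs and Sco1 (higher) and of Atpif1 (lower). Those probes passed the filter only through the genotype in which they were higher. Median scaling turned the split with LPS to 5 higher and 12 lower, where 10.9% of all kept probes were higher and 39.9% lower.

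Regulators of these genes were mixed, with 8 rises and 5 falls of 26 probes with LPS in arrays labelled knockout (30.8% and 19.2%) and 6 rises and 6 falls in wild type (23.1% each), shares near those of all kept probes in wild type. The falls in both genotypes include probes of Polg2 and Twnk that were detected on no array with LPS. They passed the filter only through unstimulated arrays, where they were higher. Median scaling gave 5 rises and 9 falls in arrays labelled knockout, where 13.1% of all kept probes rose and 35.1% fell. Arrays labelled knockout had 4 rises and 6 falls against wild type with LPS (15.4% and 23.1%), and 6 rises and 0 falls unstimulated (23.1% rose). After median scaling the split with LPS was 2 rises and 12 falls, where 10.9% of all kept probes rose and 39.9% fell. Ppargc1b, the coactivator PGC-1 beta of NRF1 and ERR, changed by -2.34 ± 0.15 in arrays labelled knockout and by -1.66 ± 0.15 in wild type (limma adjusted p = 6.93e-06 and 5.28e-05). Gabpa, the DNA-binding part of GABP, rose by 1.52 ± 0.14 in arrays labelled knockout and by 1.01 ± 0.14 in wild type, and both probes of its partner Gabpb1 rose in both genotypes, by 1.01 and 1.03 in arrays labelled knockout and by 1.48 and 1.28 in wild type. Hif1a, which turns on glycolytic genes at low oxygen, rose with LPS by 0.58 ± 0.13 in arrays labelled knockout and by 1.86 ± 0.13 in wild type (difference -1.28 ± 0.18, adjusted p = 0.00623). Slirp and Lrpprc, partners that stabilise mitochondrial messenger RNA, moved apart with LPS in arrays labelled knockout against wild type, at 1.07 ± 0.15 and -1.16 ± 0.20 (adjusted p = 0.000693 and 0.00208).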

How the data were processed

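Total RNA from the 8 macrophage samples was labelled as biotinylated cRNA and hybridised to Illumina bead arrays, per the labels' protocols. The authors deposited non-normalized probe intensities with detection p-values, used here, and processed intensity values of the same arrays, used as an alternative. GenomeStudio is named in the submitters' processing notes, and both sets share 45281 probes. The processed values have the same median, 121.0, on every array, and no source used here names the method behind this. Gene names came from the platform annotation, and all 135 member probes matched RefSeq.

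Raw intensities were background-corrected with limma 3.58.1 (nec, offset 16, which estimates the negative controls from the detection values), set on the log2 scale and quantile-normalized in R 4.3.3. The filter was a detection p under 0.01 on 2 arrays or more. A single limma model with 4 group means gave all comparisons, with Benjamini-Hochberg adjustment over the 14418 kept probes and a threshold of 0.05. A residual df of 4 limits the precision, and was raised by a prior df of 4.36. The script was tested on simulated data. Named probes are up to 12 of the largest rises and falls past the threshold in each comparison (up to 8 for the difference of LPS effects) whose arrays do not overlap, the highest and lowest of each complex, and members changed 2-fold or more. Alternatives were no background correction, an offset of 50, median scaling, cyclic loess, the processed values, no filter, detection on all 8 arrays, the brightest probe of each gene, the replicate number as a block, each array left out, and, chosen after the data were seen, centring on the kept probes and leaving out probes that fewer than 2 arrays of the lower genotype or LPS state detected (for the difference of LPS effects, of either genotype). Same-numbered arrays did not deviate together (correlations of -0.02 to 0.012), so the numbers were not taken as pairs. The members and the lists were chosen with earlier results of these data known. The number of columns belonging to other samples was 0.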

Additional observations from a re-analysis of the deposited data

Results flagged for a closer look

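The LPS effect differed between the genotypes, by the test of the difference itself, for 3 respiratory chain probes that passed the detection filter in both genotypes, and for 7 probes of the surrounding lists and of Bcl6. The 3 are 3.06% of the 98 such members, where 2.99% of all such probes passed in that direction and 4.44% in the other. Among the subunits the differences, labelled knockout minus wild type, were 1.12 log2 units for Atp5k, 0.83 for Ndufb9 and 0.75 for Sdhd (limma adjusted p between 0.025 and 0.0374). Among the surrounding genes the difference was 1.04 for a probe of Mrps25, 0.80 for Mrps15 and 0.74 for Mrpl52, proteins of the mitochondrial ribosome. It was -0.71 for 1 probe of Timm21, -1.41 for Hspd1, the mitochondrial chaperonin, and -1.28 for Hif1a. These were 3 of 105 mitochondrial ribosome probes (2.86%), 2 of 31 import probes (6.45%) and 1 of 26 regulator probes (3.85%). Among the 46 probes of assembly factors and carriers and the 25 of the tricarboxylic acid cycle, 0 passed. Of all kept probes 3.6% passed with a positive difference and 4.64% with a negative one. For Bcl6 it was -2.47 (adjusted p = 0.000381), with the highest signal on unstimulated arrays labelled knockout. Groups of 2 arrays are too small for a check of single arrays that lie apart.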

How the results depend on the processing

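No direction of a named change turned round under any alternative run, and of 67 named changes with a test 36 passed under every alternative that kept the probe. The numbers below count member probes past the threshold, or give their median log2 change. For LPS in wild type the count was 29 with median scaling, 34 centred on kept probes and 32 with cyclic loess, and the median was -0.31 without background correction, -0.33 with offset 50, -0.27 with median scaling, -0.28 centred on kept probes, -0.25 with cyclic loess, -0.30 in the processed values, -0.29 without the filter, -0.38 for probes detected on all 8 arrays and -0.40 for the brightest probe. For LPS in arrays labelled knockout the count was 19 centred on kept probes, and the median was -0.20 without background correction and in the processed values, 0.03 centred on kept probes, -0.086 with cyclic loess and -0.18 without the filter. For the unstimulated genotype comparison the count was 32 without background correction, 30 in the processed values and 11 for the brightest probe, and the median was -0.061 with median scaling, -0.00018 centred on kept probes, -0.016 for probes detected on all arrays and -0.048 for the brightest probe. For the genotype comparison with LPS the median was -0.051 with median scaling, 0.28 centred on kept probes and 0.12 without the filter. For the difference of LPS effects the count was 13 without background correction, 1 with median scaling, 8 centred on kept probes, 11 in the processed values and 2 without the filter, and the median was 0.023 with median scaling, 0.29 centred on kept probes and 0.14 without the filter. With the replicate number as a block the difference had 2 probes past the threshold, and the other counts stayed within 1.5 times. Leaving out each array gave counts of 34 to 52 for LPS in wild type (medians -0.39 to -0.35), 18 to 40 for LPS in arrays labelled knockout (-0.25 to -0.21), 10 to 19 for the unstimulated genotype comparison (-0.007 to 0.031), 23 to 36 for that with LPS (0.16 to 0.22) and 0 to 3 for the difference (0.16 to 0.24). Without probes that passed the detection filter through one side of a comparison, a setting chosen after the data were seen, the difference had 3 probes past the threshold and the unstimulated genotype median was -0.021, while the other counts stayed within 1.5 times. A fit with the slide as a block was not run, because the files used here name no slide. Settings with fewer arrays or more probes can lower the counts by construction, and the cause of the other shifts was not tested. Dim probes limit the bounds given above.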

Other observations

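Genes for the mitochondrial ribosome, which translates the subunits encoded by mitochondrial DNA, had more falls than rises with LPS in both genotypes. Of 105 kept probes, 5 rose and 44 fell (41.9%) in arrays labelled knockout (median -0.27), and 4 rose and 42 fell (40%) in wild type (median -0.28), where 25.6% and 24.9% of all kept probes fell, with medians of -0.086 and -0.071. The falls in both genotypes include probes of Mrpl49, Mrps25 and Mrps27 that passed the filter only through unstimulated arrays. In arrays labelled knockout they include another such probe of Mrps25. Median scaling gave 53 and 29 falls, where 35.1% and 20.5% of all kept probes fell. Cyclic loess gave 28 and 30 (20.1% and 21.1% of all kept probes), and centring on the kept probes 29 and 33 (20.8% and 22.9%). The 93 probes detected on all 8 arrays had 43 and 41 falls, where 30.2% and 30.7% of all such probes fell. Mrps6 changed by -1.11 ± 0.13 in arrays labelled knockout and by -1.46 ± 0.13 in wild type. Probes of Mrps25 disagreed: the brightest changed by 0.18 ± 0.17 in arrays labelled knockout and by -0.86 ± 0.17 in wild type, while a dimmer one, not detected with LPS, was lower with LPS in both. Between genotypes the list had 18 rises and 18 falls with LPS (median -0.0078) and 11 of each unstimulated. With LPS these include rises of Mrpl39 and Mrpl47 probes and a fall of a Mrps27 probe. Those probes passed the filter only through the genotype in which they were higher. After median scaling the split with LPS was 8 rises and 39 falls, where 10.9% of all kept probes rose and 39.9% fell. Both probes of Mrps12 were lower in arrays labelled knockout, by changes of -1.81 and -1.61 with LPS and -1.92 and -1.52 unstimulated (limma adjusted p between 1.64e-05 and 3.04e-05).

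The tricarboxylic acid cycle list of 25 kept probes had 3 rises and 3 falls with LPS in arrays labelled knockout (12% each) and 4 rises and 6 falls in wild type (16% and 24%), where 19.2% of all kept probes rose and 25.6% fell in arrays labelled knockout, and 20.4% and 24.9% in wild type. The wild-type rises include a Pcx probe detected on no unstimulated array. Acod1, which makes itaconate from aconitate, rose with LPS on both probes, by 1.91 and 1.33 in arrays labelled knockout and by 2.00 and 1.46 in wild type. Idh2, the NADP-dependent isocitrate dehydrogenase, was higher in arrays labelled knockout by 2.08 ± 0.11 with LPS and 1.65 ± 0.11 unstimulated (adjusted p = 3.98e-06 and 1.98e-05). With LPS 6 probes of this list were higher and 2 lower in arrays labelled knockout (24.0% and 8.0%, against 20.2% and 23.1% of all kept probes). Unstimulated, 7 were higher and 0 lower (28.0% higher, against 16.3%). A dim Fh1 probe, counted as higher in both states, passed the filter only through arrays labelled knockout. That of Pcx, counted as lower with LPS, passed only through wild type. After median scaling the split with LPS was 4 higher and 6 lower, where 10.9% of all kept probes were higher and 39.9% lower. In the import list of 31 probes, Tomm22, a receptor of the outer membrane, was lower in arrays labelled knockout by a change of -3.44 ± 0.11 with LPS and -4.0 ± 0.11 unstimulated (adjusted p = 2.09e-07 and 1.13e-07), the largest change of the list in either state. The import list had 7 rises and 6 falls in arrays labelled knockout against wild type with LPS (22.6% and 19.4%). Unstimulated it had 11 rises and 3 falls (35.5% and 9.68%, against 16.3% and 16.1% of all kept probes). The falls with LPS include a Dnajc19 probe detected on 1 array of each genotype. After median scaling the split with LPS was 5 rises and 11 falls, where 10.9% of all kept probes rose and 39.9% fell. The LPS change gave 1 rise and 8 falls in arrays labelled knockout (3.23% and 25.8%) and 3 rises and 7 falls in wild type (9.68% and 22.6%). The falls in arrays labelled knockout include the same Dnajc19 probe, which was detected on no array with LPS.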
